A study of Mus musculus with 24 samples.

Results

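The retinoblastoma pocket proteins and the inhibitors of cyclin-dependent kinases (CDKs) were followed in mouse skin that carried the human papillomavirus 16 E7 oncogene. The 9 genes were Rb1, Rbl1, Rbl2, Cdkn2a, Cdkn2b, Cdkn2c, Cdkn1a, Cdkn1b and Cdkn1c. They were chosen by symbol from the 27180 rows of each count table, because the pocket proteins are the cellular targets of E7, and all 9 were found and passed the filter on low counts in each fit. RNA-seq libraries came from 8 groups of 3. Whole ear skin was taken from 8-week-old K14E7 mice, in which the keratin 14 promoter drives E7 in basal keratinocytes (E7 ear), and from C57BL/6 mice (C57 ear). Ear skin of CD1dKOxK14E7, K14E7 or C57BL/6 donors was grafted onto C57BL/6 recipients and collected at 14 or 28 days, labelled dpg (CD1dKOxE7, E7 and C57 grafts). CD1d presents lipids to natural killer T cells and is labelled as knocked out in the CD1dKOxK14E7 donors. The labels do not say which grafts came from separate donors or recipients, so p-values measure the spread between these libraries. The recipients keep their own leukocytes, and the counts do not separate donor cells from host cells.

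Rb1 encodes pRb, Rbl1 encodes p107 and Rbl2 encodes p130. These pocket proteins bind E2F transcription factors and hold back genes for entry into S phase, and E7 binds them and frees E2F. In keratinocytes E7 also directs pRb to degradation, a change in protein that RNA counts do not measure. The INK4 inhibitors p16 (Cdkn2a), p15 (Cdkn2b) and p18 (Cdkn2c) block CDK4 and CDK6, while p21 (Cdkn1a), p27 (Cdkn1b) and p57 (Cdkn1c) act mainly on CDK2 complexes. A second transcript of Cdkn2a, ARF, restrains Mdm2 and so stabilises p53. High p16 is a widely used sign of E7 activity in human papillomavirus lesions.

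Library totals ran from 6550011 to 13814448 counts, and levels are given as CPM, counts scaled to a common library size with the trimmed mean of M values (TMM). Intervals of 1.96 SE include the spread between libraries, while a limit set by 3 counts covers counting error only. The E7 transgene had 57.2, 54.6 and 42.1 CPM in E7 ear, against 0, 1 and 2 counts in C57 ear. It had 17.6 to 23.5 CPM in CD1dKOxE7 and 33.8 to 40.6 CPM in E7 grafts at 14 dpg, and 18.8 to 44.4 CPM in CD1dKOxE7 and 25.5 to 34.1 CPM in E7 grafts at 28 dpg, with 0 counts in every C57 graft. Reads of Cd1d1 were present in the grafts labelled CD1dKOxE7, with 11.4 to 17.3 CPM at 14 dpg and 5.34, 4.44 and 14.7 CPM at 28 dpg, against 14.3 to 16.8 CPM and 21.4 to 25.8 CPM in E7 grafts at 14 and 28 dpg. The labels do not give the bases that were deleted, so this does not check the deletion, and the groups are called by their labels. Replicate 3 of the CD1dKOxE7 grafts at 28 dpg stood apart from the other 2 in E7, in Cd1d1 and in several genes below. Markers of basal and suprabasal keratinocytes were detected in every library, and no list of the 11 cell type lists was at 0. Sample codes in the labels put the ear libraries on 1 flow cell, and on the other flow cell the E7 and C57 grafts in lane 1 and the CD1dKOxE7 grafts in lane 2. The E7 and C57 groups of a tissue and day therefore shared a lane. The CD1dKOxE7 donor and the lane cannot be told apart, and neither can grafting and the flow cell.

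Promoter windows of 250 bases before to 50 bases after a RefSeq start (GRCm38.p6) were found for 7 of the 9 genes, in 10 windows, with none for Rb1 and Cdkn1c. The windows of Rbl1 and Cdkn2a are shown because these genes had the largest rises in E7 ear among the 9 genes. The E2F-type letters TTTCCCGC, TTTCGCGC, TTTGCCGC and TTTGGCGC were searched on both strands and stand in capitals. The Rbl1 window (chr2:157204485-157204784, minus strand) held TTTCGCGC with its first base at -18 from the start. The upstream Cdkn2a window (chr4:89294570-89294869, minus strand) lies at the first exon of ARF and held TTTCCCGC at -99. The downstream Cdkn2a window (chr4:89282143-89282442, minus strand) lies at the first exon of p16 and held none of these letters. The letters occurred in 2 of the 10 windows and in 2.26% of all 32851 windows, and a match does not show binding.
Rbl1: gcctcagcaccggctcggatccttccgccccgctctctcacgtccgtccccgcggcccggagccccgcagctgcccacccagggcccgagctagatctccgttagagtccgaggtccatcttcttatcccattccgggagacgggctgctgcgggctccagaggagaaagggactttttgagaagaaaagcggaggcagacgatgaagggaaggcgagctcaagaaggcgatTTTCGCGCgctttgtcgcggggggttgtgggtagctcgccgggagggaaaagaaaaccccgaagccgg
Cdkn2a upstream: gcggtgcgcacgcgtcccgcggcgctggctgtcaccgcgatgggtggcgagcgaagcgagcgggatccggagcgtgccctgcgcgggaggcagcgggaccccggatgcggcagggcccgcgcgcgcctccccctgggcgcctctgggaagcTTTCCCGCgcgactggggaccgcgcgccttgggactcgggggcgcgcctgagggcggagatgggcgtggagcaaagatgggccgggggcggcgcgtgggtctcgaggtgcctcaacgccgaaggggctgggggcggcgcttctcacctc
Cdkn2a downstream: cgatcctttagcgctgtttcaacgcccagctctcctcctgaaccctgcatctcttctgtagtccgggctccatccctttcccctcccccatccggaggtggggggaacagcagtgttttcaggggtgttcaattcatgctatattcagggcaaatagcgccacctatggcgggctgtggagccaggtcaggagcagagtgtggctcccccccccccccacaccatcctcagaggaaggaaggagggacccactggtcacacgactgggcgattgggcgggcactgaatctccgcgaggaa

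In E7 ear against C57 ear, Rbl1 and Rb1 rose while Rbl2 was slightly lower, so the pocket protein RNAs moved apart. Rbl1 had 101, 115 and 113 CPM in E7 ear, against 24.5, 26.0 and 26.9 CPM in C57 ear. Every E7 library lay far above every C57 library, a 4.26-fold rise (log2 difference 2.09 ± 0.07 SE, adjusted p = 4.83e-09, edgeR quasi-likelihood test with Benjamini-Hochberg adjustment over 15720 genes, as for all adjusted p-values of the ear). Rb1 had 122, 133 and 127 CPM in E7 ear, against 75.7, 72.8 and 66.0 CPM in C57 ear, and the groups did not overlap (log2 difference 0.83 ± 0.07, adjusted p = 1.22e-06). The span of the Rb1 gene overlaps those of Rcbtb2 and Lpar6 on the opposite strand. Overlap of exons was not examined and the strand of counting is not given, so whether Rb1 counts include reads of these genes is not known. Rbl2, which encodes the pocket protein of resting cells, had 68.5, 74.0 and 78.0 CPM in E7 ear, against 82.1, 84.2 and 84.1 CPM in C57 ear. It fell by 0.18 ± 0.06 on the log2 scale (adjusted p = 0.0252). This call was lost with DESeq2, without E7 replicate 1 and without any 1 of the 3 C57 replicates (adjusted p = 0.0514 to 0.116). The span of the Rbl2 gene overlaps that of Aktip on the opposite strand, and overlap of their exons was not examined either.

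All 3 INK4 genes rose in E7 ear. Cdkn2a differed most, with 8.18, 8.78 and 6.44 CPM in E7 ear (85, 90 and 68 counts), against 0.164, 0 and 0.135 CPM in C57 ear (2, 0 and 2 counts). The gene was thus near the limit of detection in C57 ear and clearly counted in each E7 ear. The fitted rise was 71.2-fold (log2 difference 6.15 ± 0.39, adjusted p = 2.14e-07) and ran from 5.62 to 6.58 on the log2 scale over the alternatives, a size that rests on 4 counts in C57 ear. The counts do not separate p16 from ARF. Cdkn2b, the neighbour of Cdkn2a and a target of TGF-beta signalling, had 28.6, 27.4 and 28.1 CPM in E7 ear, against 13.7, 17.0 and 14.4 CPM in C57 ear (log2 difference 0.90 ± 0.10, adjusted p = 1.59e-05). Cdkn2c had 47.7, 53.4 and 48.1 CPM in E7 ear, against 30.9, 33.3 and 33.1 CPM in C57 ear (log2 difference 0.62 ± 0.08, adjusted p = 3.03e-05). Neither gene had overlapping groups.

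The 3 CIP/KIP genes each did something different. Cdkn1a, a p53 target that also rises in differentiating keratinocytes, had 571, 557 and 534 CPM in E7 ear, against 241, 232 and 192 CPM in C57 ear. It rose 2.5-fold with no overlap (log2 difference 1.32 ± 0.09, adjusted p = 2.83e-07). Cdkn1c, an imprinted gene, had 15.1, 23.2 and 14.4 CPM in E7 ear, against 51.0, 52.8 and 40.3 CPM in C57 ear, and fell by 1.45 ± 0.19 on the log2 scale (adjusted p = 0.000428). Cdkn1b, which restrains CDK2 in resting cells, had 94.6, 106 and 98.5 CPM in E7 ear, against 89.9, 89.4 and 97.3 CPM in C57 ear. Its groups overlapped (log2 difference 0.11 ± 0.07, interval of 1.96 SE from -0.01 to 0.24, adjusted p = 0.142). In all, 6 of the 9 genes rose and 2 fell, where 65.3% of all genes tested were called in this comparison (32.6% higher and 32.7% lower). Libraries of the groups did not overlap for 8 of the 9 genes, against 71.1% of all genes.

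**Figure D1:**
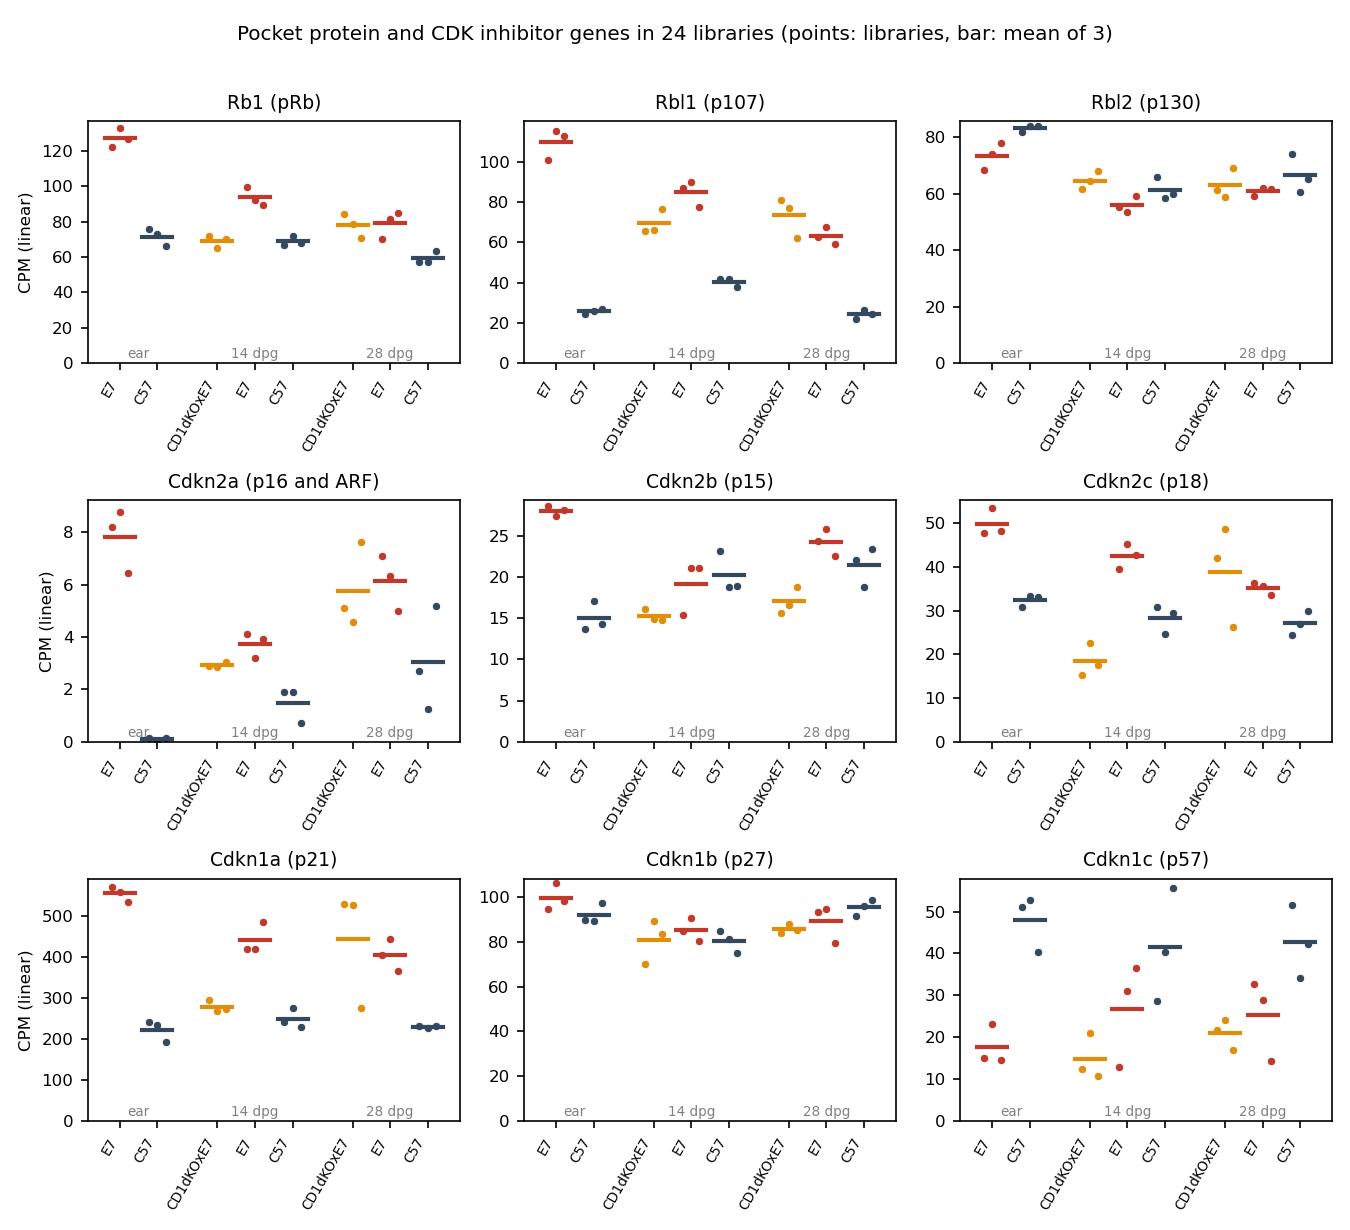
CPM (linear axis from 0) of the 9 genes in 24 libraries, with E7 left of C57 in ear and CD1dKOxE7, E7 and C57 from left to right at 14 and 28 dpg. Points are libraries and bars are means of 3; Rbl1 lay at 59.2 CPM or above in every library with the transgene and at 41.8 CPM or below in every C57 library, while Cdkn1b stayed between 69.9 and 106 CPM in all libraries.

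Cell type markers moved with these differences. The summed level of 7 suprabasal keratinocyte genes was 40863 to 43468 CPM in E7 ear and 15387 to 18513 CPM in C57 ear, and 7 of 7 rose. The sum of 7 fibroblast and dermis genes was 2355 to 4524 CPM in E7 ear and 8265 to 9243 CPM in C57 ear, and 7 of 7 fell. No marker of either list was at 0, and the sum of 7 basal keratinocyte genes overlapped (13158 to 15924 CPM in E7 ear, 13790 to 15067 CPM in C57 ear). Of these 7 basal genes 2 rose and 3 fell. Every gene of the adipocyte (6), skeletal muscle (6), cartilage (5), endothelium (6), Schwann cell (5) and mast cell (4) lists also fell. Of 6 hair follicle genes 3 rose and 2 fell, and of 5 leukocyte genes tested 2 rose and 1 fell. The part of cell makeup in the 9 genes' differences was not tested, and in whole skin fewer cells of a type and less RNA per cell cannot be told apart.

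Genes that work with the 9 in the same circuit were read from 8 lists, against the share of all genes of 32.6% higher and 32.7% lower. The shares called in either direction were near the 65.3% of all genes for p27 and p21 turnover and for the ARF and p53 branch. They were also near it for TGF-beta and stress and for DREAM and MuvB, and somewhat above it for regulators of the Cdkn2a locus. Of 19 genes of the CDK, cyclin and E2F switch, 13 rose and 4 fell in E7 ear against C57 ear, with a median log2 difference of 0.69 beside 0.00 over all genes. Ccne1, the cyclin E1 gene and a classical E2F target, had 60.1 ± 2.71 CPM in E7 ear and 3.35 ± 0.876 CPM in C57 ear (SD, n = 3 each, log2 difference 4.15 ± 0.13). E2f8, a repressor E2F, had 99.9 ± 4.16 CPM in E7 ear and 13.2 ± 0.993 CPM in C57 ear. All 16 S phase genes rose, with a median log2 difference of 2.21. Of 7 genes listed for the DREAM and MuvB complexes, 5 rose and 0 fell, led by Mybl2 (log2 difference 2.35 ± 0.14). The list mixes genes of the p130 and p107 repressor with others such as Mybl2, so its counts do not describe the repressor alone. Of 17 regulators of the Cdkn2a locus, 9 rose and 4 fell. Those with the smallest p included Ezh2 and Suz12, Polycomb subunits that silence this locus, at log2 differences of 1.45 ± 0.07 and 0.95 ± 0.07. Of 10 genes of the ARF and p53 branch, 5 rose and 1 fell, among them the p53 targets Btg2 (1.43 ± 0.06 on the log2 scale) and Bbc3 (0.98 ± 0.12). Of 9 genes for the turnover of p27 and p21, 5 rose and 0 fell, including Skp2 (1.47 ± 0.11) and Cks1b (1.62 ± 0.09), which mark p27 for degradation. Of 13 TGF-beta and stress genes, 4 rose and 5 fell, with Tgfb3 and Tgfb2 lower by log2 differences of -1.56 ± 0.09 and -1.47 ± 0.11. The remaining INK4 gene, Cdkn2d, and the CDK phosphatase gene Cdkn3 rose by 1.51 ± 0.14 and 3.19 ± 0.14 on the log2 scale.

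In E7 grafts against C57 grafts, the same direction of Rbl1, Rb1, Cdkn1a and Cdkn2a was seen at both days, with smaller fitted differences than in the ear. Of the 9 genes, 5 rose and 0 fell at 14 dpg, where 30.2% of 16189 genes were called (15.8% higher and 14.4% lower), and 4 rose and 0 fell at 28 dpg, where 35.4% were called (20.7% higher and 14.7% lower). Rbl1 at 14 dpg had 86.8, 90.1 and 77.6 CPM in E7 grafts, against 41.6, 41.8 and 38.0 CPM in C57 grafts (log2 difference 1.08 ± 0.11, adjusted p = 1.04e-05). At 28 dpg it had 62.6, 67.8 and 59.2 CPM in E7 grafts, against 21.8, 26.4 and 24.6 CPM in C57 grafts (1.40 ± 0.11 on the log2 scale, adjusted p = 4.16e-07). The E7 and C57 libraries stayed well apart at both days. Rb1 rose by log2 differences of 0.46 ± 0.08 at 14 dpg (adjusted p = 0.00108) and 0.43 ± 0.08 at 28 dpg (adjusted p = 0.00118). Cdkn1a had 418, 418 and 483 CPM in E7 grafts, against 241, 273 and 228 CPM in C57 grafts at 14 dpg (log2 difference 0.84 ± 0.18, adjusted p = 0.00335). At 28 dpg Cdkn1a had 404, 442 and 364 CPM in E7 grafts, against 231, 226 and 230.0 CPM in C57 grafts (log2 difference 0.83 ± 0.18, adjusted p = 0.00257).

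The INK4 genes were less uniform in these grafts. Cdkn2a at 14 dpg had 4.13, 3.18 and 3.91 CPM in E7 grafts (26, 29 and 34 counts), against 1.90, 1.90 and 0.716 CPM in C57 grafts (15, 13 and 6 counts), a log2 difference of 1.33 ± 0.42 (adjusted p = 0.0263). The groups did not overlap, but the call was lost without E7 replicate 1 or 3 or C57 replicate 3 (adjusted p = 0.0575 to 0.121). At 28 dpg Cdkn2a had 7.08, 6.34 and 5.00 CPM in E7 grafts, against 2.69, 1.26 and 5.16 CPM in C57 grafts, and C57 replicate 3 lay above the lowest E7 library. Its log2 difference of 1.04 ± 0.37 (adjusted p = 0.0368) lost the call with no filter, with only the compared groups fitted, and without E7 replicate 1 or 2 or C57 replicate 1 or 2 (adjusted p = 0.0511 to 0.128). Cdkn2c had 39.5, 45.2 and 42.6 CPM in E7 grafts, against 30.8, 24.7 and 29.4 CPM in C57 grafts at 14 dpg, with a log2 difference of 0.60 ± 0.18 (adjusted p = 0.022). That call was lost without E7 replicate 2 or C57 replicate 2 or 3 (adjusted p = 0.056 to 0.079). At 28 dpg its log2 difference was 0.39 ± 0.18 (adjusted p = 0.106, and 0.0131 with only the compared groups fitted) with libraries that did not overlap. Cdkn2b showed log2 differences of -0.06 ± 0.13 and 0.19 ± 0.13 at 14 and 28 dpg, with overlapping libraries.

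Rbl2, Cdkn1b and Cdkn1c were not called between E7 and C57 grafts at either day. Rbl2 had log2 differences of -0.12 ± 0.08 and -0.11 ± 0.08, with intervals from -0.28 to 0.04 and from -0.27 to 0.05 at 14 and 28 dpg. Cdkn1c at 14 dpg had 12.9, 31.0 and 36.4 CPM in E7 grafts, against 28.6, 40.3 and 55.6 CPM in C57 grafts. At 28 dpg it had 32.8, 28.8 and 14.4 CPM in E7 grafts, against 51.5, 34.1 and 42.3 CPM in C57 grafts. Its log2 differences of -0.60 ± 0.38 and -0.74 ± 0.38 had wide errors, and its libraries ranged widely within groups. The difference of the E7 effect between 28 and 14 dpg was called for 0 of the 9 genes with edgeR (0 at an unadjusted p under 0.05, and 0 with DESeq2), and for 0.167% of all genes (0.148% higher and 0.0185% lower). The 16 S phase genes rose at both days, with median log2 differences of 1.45 at 14 dpg and 1.75 at 28 dpg. Ccne1 had 49.3 ± 2.07 CPM in E7 grafts and 9.12 ± 1.34 CPM in C57 grafts at 14 dpg (SD, n = 3 each). The summed suprabasal markers were 46977 to 90700.4 CPM in E7 and 32878 to 36501 CPM in C57 grafts at 14 dpg, and 35727 to 37834 CPM in E7 and 20711 to 24178 CPM in C57 grafts at 28 dpg, and 4 of 7 rose at each day. The fibroblast sum was 16264 to 25760.5 CPM in E7 and 30897 to 45850.3 CPM in C57 grafts at 14 dpg, and 5 of 7 fell. At 28 dpg 5 of 7 fibroblast, 6 of 6 endothelium and 5 of 5 Schwann cell genes fell. No gene of the hair follicle, adipocyte, skeletal muscle, cartilage, leukocyte and mast cell lists was called at that day. Their part in these differences was not tested.

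**Figure D2:**
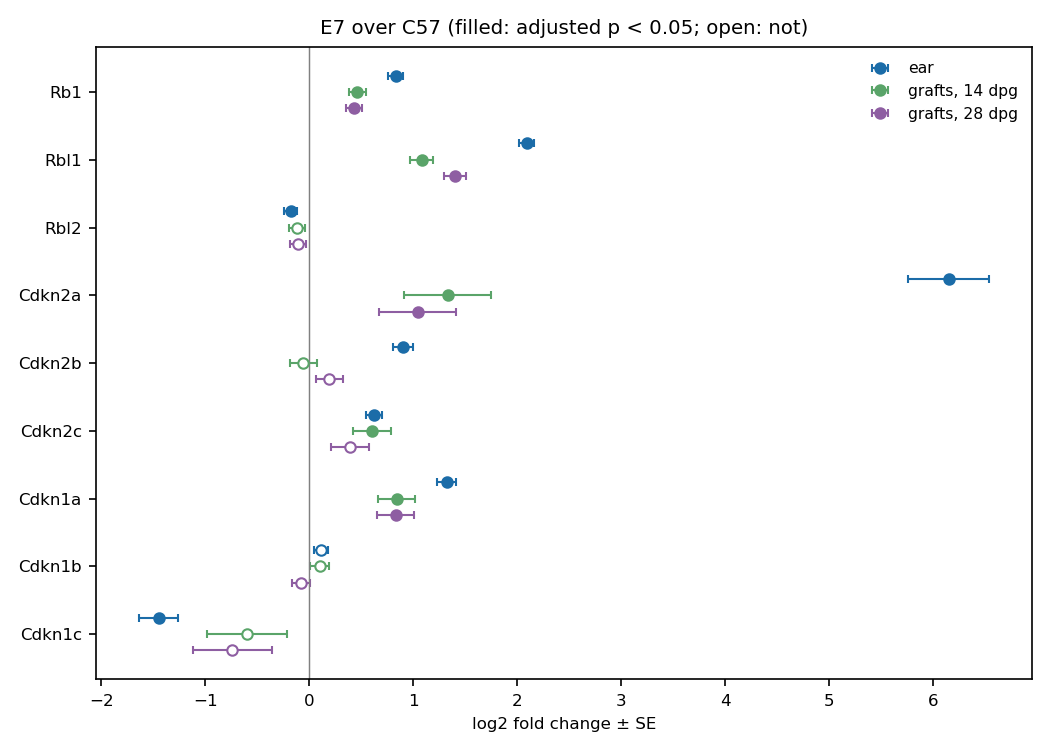
Log2 fold change of E7 over C57 with its SE for the 9 genes in ear, in grafts at 14 dpg and in grafts at 28 dpg. Filled points passed an adjusted p of 0.05; Cdkn2a stands at 6.15 in ear and at 1.33 and 1.04 in grafts, and Rbl1, Rb1 and Cdkn1a are filled in all 3 settings.

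The E7 effect differed between ear and graft for 4 of the 9 genes at each day, in a fit of all 24 libraries in which 12.6% of genes were called at 14 dpg (4.02% higher and 8.61% lower) and 7.43% at 28 dpg (2.29% higher and 5.13% lower). The graft effect minus the ear effect of Cdkn2a was -4.79 ± 0.75 at 14 dpg (adjusted p = 0.000256) and -5.09 ± 0.69 at 28 dpg (adjusted p = 0.00025) on the log2 scale. For Rbl1 it was -1.02 ± 0.14 (adjusted p = 5.09e-05) and -0.70 ± 0.14 (adjusted p = 0.00432). For Cdkn2b it was -0.97 ± 0.17 (adjusted p = 0.000864) and -0.72 ± 0.17 (adjusted p = 0.0131). Cdkn2a and Cdkn2b also differed between C57 tissues. C57 grafts at 14 and 28 dpg had 1.50 ± 0.682 and 3.04 ± 1.98 CPM of Cdkn2a, against 0.0996 ± 0.0874 CPM in C57 ear (SD, n = 3 each). These were log2 differences of 3.73 ± 0.68 (adjusted p = 0.000119) and 4.74 ± 0.59 (adjusted p = 6.67e-06). The sizes of these values and of the Cdkn2a effect differences rest on 2, 0 and 2 counts in C57 ear. In E7 grafts at 28 dpg against E7 ear, Cdkn2a had a log2 difference of -0.34 (adjusted p = 0.382). Cdkn2b rose in C57 grafts against C57 ear by 0.43 ± 0.12 (adjusted p = 0.00612, and 0.122 without graft replicate 1) and 0.51 ± 0.12 (adjusted p = 0.00268) at the 2 days. In E7 grafts against E7 ear, Cdkn2b fell by 0.54 ± 0.12 at 14 dpg (adjusted p = 0.00128) and had a log2 difference of -0.21 ± 0.12 at 28 dpg (adjusted p = 0.151). Cdkn2c had log2 differences of -0.19 ± 0.16 and -0.26 ± 0.16 in C57 grafts against C57 ear (adjusted p = 0.316 and 0.199), and only the second was called with just the compared groups fitted (adjusted p = 0.0438). The effect difference of Cdkn1a at 28 dpg (-0.50 ± 0.23, adjusted p = 0.193) was called in that way alone (adjusted p = 0.0189). Rb1 had effect differences of -0.39 ± 0.11 (adjusted p = 0.026) and -0.42 ± 0.11 (adjusted p = 0.0261). These passed narrowly: at 14 dpg the call was lost under 14 alternatives, among them leaving out any 1 library other than C57 ear replicates 1 and 2 (adjusted p = 0.0502 to 0.117). At 28 dpg it was lost under 7, among them leaving out E7 ear replicate 2 or 3, C57 ear replicate 3, E7 graft replicate 1 or C57 graft replicate 3 (adjusted p = 0.0511 to 0.0854).

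Directly between tissues, C57 grafts at 14 dpg against C57 ear had 3 of the 9 genes higher and 1 lower, where 52.6% of genes were called (30.6% higher and 22.0% lower). At 28 dpg 2 were higher and 2 lower, where 39.2% were called (21.3% higher and 18.0% lower). Rbl1 was among the higher ones at 14 dpg (0.65 ± 0.10 on the log2 scale, adjusted p = 1.94e-05) and had a log2 difference of -0.09 ± 0.10 at 28 dpg. Of the 16 S phase genes, 13 rose at 14 dpg and 3 fell at 28 dpg in C57 grafts against C57 ear. Rbl2 fell by 0.44 ± 0.08 and 0.32 ± 0.08 at 14 and 28 dpg (adjusted p = 7.58e-05 and 0.00237). Rb1 had 57.2, 57.1 and 63.7 CPM in C57 grafts at 28 dpg, against 75.7, 72.8 and 66.0 CPM in C57 ear, and fell by 0.27 ± 0.08 (adjusted p = 0.011, and 0.0551 without C57 ear replicate 1). Cdkn1b at 14 dpg had a log2 difference of -0.20 ± 0.08 (adjusted p = 0.0515), which 6 alternatives called, among them leaving out graft replicate 1 (adjusted p = 0.00862 to 0.0239). In E7 grafts against E7 ear, 6 of the 9 genes fell and 0 rose at 14 dpg, where 43.2% of genes were called (21.9% higher and 21.3% lower). At 28 dpg 5 fell and 0 rose, where 48.1% were called (23.8% higher and 24.2% lower). The steepest was Cdkn2a at 14 dpg, at -1.07 ± 0.33 (adjusted p = 0.013), and at 28 dpg Rbl1 at -0.80 ± 0.09 and Rb1 at -0.69 ± 0.08 (adjusted p = 2.7e-06 and 1.81e-06). At 14 dpg Cdkn1a (-0.33 ± 0.16, adjusted p = 0.102) was called with only the compared groups fitted (adjusted p = 0.0131), and Cdkn1c (0.63 ± 0.36, adjusted p = 0.174) without graft replicate 1 (adjusted p = 0.0359). Cdkn1b at 14 dpg (-0.23 ± 0.08, adjusted p = 0.0324) lost its call without E7 ear replicate 2 or 3 or graft replicate 1 or 3, and 2 more alternatives (adjusted p = 0.051 to 0.172). At 28 dpg Cdkn1a (-0.46 ± 0.16, adjusted p = 0.0249) lost its call without E7 ear replicate 1 or 2 or graft replicate 1 or 3, and under upper quartile scaling (adjusted p = 0.0557 to 0.0943), and Cdkn2c (-0.50 ± 0.16, adjusted p = 0.0118) without E7 ear replicate 2 (adjusted p = 0.0609). The fibroblast sum was 16264 to 25760.5 CPM in E7 grafts at 14 dpg and 2355 to 4524 CPM in E7 ear, and 30897 to 45850.3 CPM in C57 grafts at 14 dpg and 8265 to 9243 CPM in C57 ear. The sum of 6 hair follicle genes was 1369.9 to 5242 CPM in E7 grafts at 14 dpg and 63.1 to 85.6 CPM in E7 ear, and 4204 to 7482 CPM in C57 grafts at 14 dpg and 92.9 to 102 CPM in C57 ear. All 6 rose in both (median log2 differences of 4.63 in E7 and 6.68 in C57 skin). All 6 endothelium genes rose in both as well, while 4 of 6 skeletal muscle genes fell in E7 and 6 of 6 in C57 grafts, and 1 and 5 of 6 adipocyte genes. At 28 dpg hair follicle genes rose in 6 of 6 cases in E7 and 4 of 6 in C57 grafts, and endothelium genes in 6 and 5 of 6. The part of cell makeup in the graft and ear differences was not tested.

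At 14 dpg the grafts labelled CD1dKOxE7 had less RNA of 4 of the 9 genes than E7 grafts, and more of 0, where 29.8% of genes were called (15.1% higher and 14.8% lower). Cdkn2c had 15.4, 22.5 and 17.6 CPM in CD1dKOxE7 grafts, against 39.5, 45.2 and 42.6 CPM in E7 grafts, and fell by 1.20 ± 0.18 on the log2 scale (2.3-fold, adjusted p = 0.000167). These CD1dKOxE7 libraries held the lowest Cdkn2c levels of all 24. Cdkn1a had 293, 267 and 271 CPM in CD1dKOxE7 grafts, against 418, 418 and 483 CPM in E7 grafts, and fell by 0.68 ± 0.18 (adjusted p = 0.00987). Rb1 had 71.8, 65.2 and 69.9 CPM in CD1dKOxE7 grafts, against 99.5, 92.3 and 89.3 CPM in E7 grafts, and fell by 0.45 ± 0.08 (adjusted p = 0.000703). For these 3 genes no CD1dKOxE7 library reached the lowest E7 library. Groups without overlap were not particular to called genes. Cdkn2a had 2.85 to 3.03 CPM in CD1dKOxE7 and 3.18 to 4.13 CPM in E7 grafts. Rbl2 had 61.7 to 68.0 CPM in CD1dKOxE7 and 53.5 to 59.4 CPM in E7 grafts. The share of all genes without overlap is given for the ear only. Rbl1 had 65.7, 66.0 and 76.4 CPM in CD1dKOxE7 grafts, just under the 86.8, 90.1 and 77.6 CPM in E7 grafts, and fell by 0.30 ± 0.10 (adjusted p = 0.0375). That call was lost with no filter, with only the compared groups fitted, and without replicate 1 or 2 of either group (adjusted p = 0.0723 to 0.129). Cdkn2a, Cdkn2b, Rbl2, Cdkn1b and Cdkn1c were not called, with log2 differences of -0.36 ± 0.38, -0.35 ± 0.13, 0.19 ± 0.08, -0.08 ± 0.09 and -0.87 ± 0.39. Without E7 replicate 1, Cdkn1c reached an adjusted p of 0.0277 and Cdkn2b one of 0.0119. With all 24 libraries fitted, Cdkn2b (adjusted p = 0.0449) and Rbl2 (0.21 on the log2 scale, adjusted p = 0.0493) were called.

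Markers of keratinocyte layers and leukocytes moved with this contrast. The suprabasal sum was 13535 to 19743 CPM in CD1dKOxE7 and 46977 to 90700.4 CPM in E7 grafts at 14 dpg, and 7 of 7 genes fell. The sum of 6 leukocyte genes was 2729 to 2981 CPM in CD1dKOxE7 and 478 to 700 CPM in E7 grafts, and 5 of 6 rose. The E7 transgene itself was 20.5 ± 2.96 CPM in CD1dKOxE7 and 37.7 ± 3.49 CPM in E7 grafts (SD, n = 3 each). No marker of these lists was at 0, their part in the Cdkn2c, Cdkn1a, Rb1 and Rbl1 differences was not tested, and the lane cannot be told apart from the donor. Of the 16 S phase genes 14 fell and 0 rose (median log2 difference -0.58, all genes -0.03), and of the 19 switch genes 10 fell and 0 rose, with Ccne2 at -1.78 ± 0.30.

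At 28 dpg, CD1dKOxE7 against E7 grafts had 0 of the 9 genes called with edgeR, where 0.210% of genes were called (0.0741% higher and 0.136% lower). At an unadjusted p under 0.05 there was 1 gene, Cdkn2b, with 15.7, 16.6 and 18.8 CPM in CD1dKOxE7 grafts, against 24.3, 25.8 and 22.5 CPM in E7 grafts. Its libraries did not overlap (log2 difference -0.52 ± 0.13, adjusted p = 0.103), and DESeq2 called it as the only member (adjusted p = 0.0428). Cdkn2c had 41.9, 48.6 and 26.3 CPM in CD1dKOxE7 grafts, against 36.3, 35.5 and 33.5 CPM in E7 grafts. Cdkn1a had 527, 526 and 275 CPM in CD1dKOxE7 grafts, against 404, 442 and 364 CPM in E7 grafts. In both genes replicates 1 and 2 of the CD1dKOxE7 grafts lay above every E7 library and replicate 3 lay below every E7 library. The suprabasal sum had the same split, with 41891, 45990.0 and 22406 CPM in CD1dKOxE7 grafts, against 35727 to 37834 CPM in E7 grafts. So did the E7 transgene, with 44.1, 44.4 and 18.8 CPM in CD1dKOxE7 grafts, against 25.5 to 34.1 CPM in E7 grafts. The part of the suprabasal genes and of the transgene in this split was not tested. Without replicate 3, the log2 differences of Cdkn2c and Cdkn1a were 0.36 (adjusted p = 0.178) and 0.38 (adjusted p = 0.0516), that of Cdkn2b was -0.59 (adjusted p = 0.0503), and 304 genes in all were called in place of 34.

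**Figure D3:**
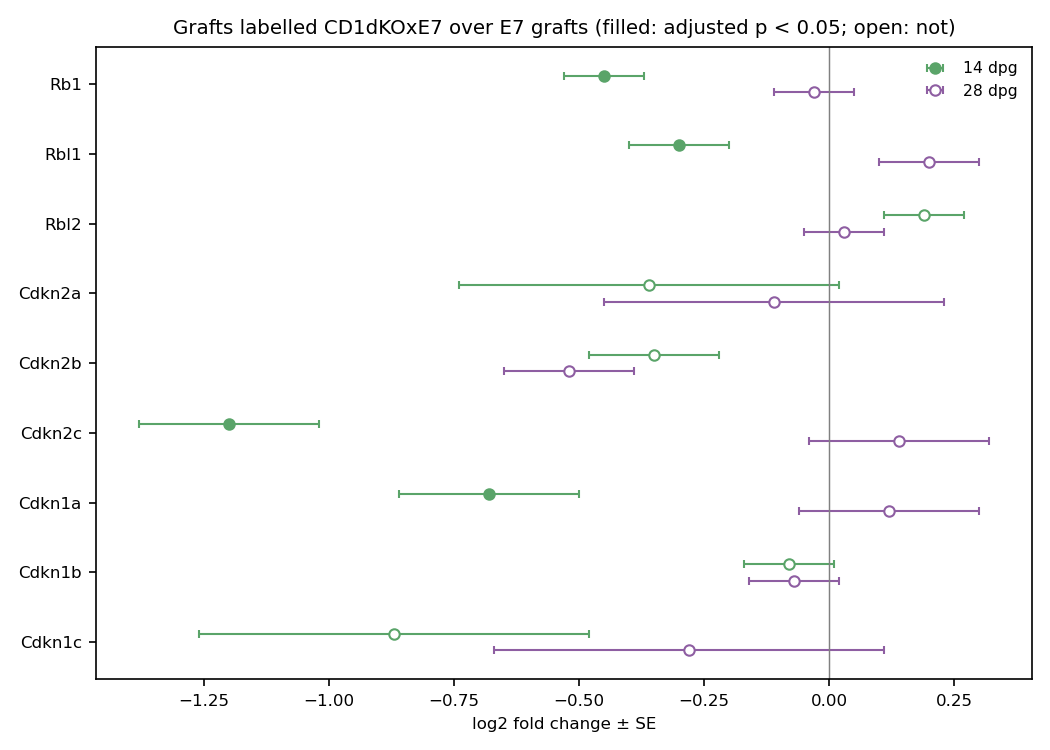
Log2 fold change of grafts labelled CD1dKOxE7 over E7 grafts, with its SE, for the 9 genes at 14 and 28 dpg. Filled points passed an adjusted p of 0.05; 4 points at 14 dpg are filled, from -0.30 for Rbl1 to -1.20 for Cdkn2c, and no point at 28 dpg is.

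The CD1dKOxE7 against E7 difference itself changed between the days for 4 of the 9 genes, with 12.8% of genes called (6.54% higher and 6.31% lower). The 28 dpg difference minus the 14 dpg difference was 1.34 ± 0.26 for Cdkn2c (adjusted p = 0.00459), 0.42 ± 0.12 for Rb1 (adjusted p = 0.0271), 0.51 ± 0.15 for Rbl1 (adjusted p = 0.0343) and 0.80 ± 0.25 for Cdkn1a (adjusted p = 0.0495) on the log2 scale. Cdkn2c was called under all 19 alternatives run. Without the library that stood apart, the values were 1.56, 0.50, 0.62 and 1.06 (adjusted p = 4.34e-05, 0.00421, 0.00253 and 4.35e-05). Leaving out any 1 of the other 11 libraries of these 4 groups ended the Cdkn1a call (adjusted p = 0.0619 to 0.139), as did upper quartile scaling (adjusted p = 0.0518) and no filter (adjusted p = 0.0734). The Rbl1 call was lost without replicate 1 of any of the 4 groups, replicate 2 of any group but E7 at 28 dpg, or replicate 3 of that group (adjusted p = 0.0659 to 0.101). The Rb1 call was lost without replicate 1 of E7 grafts at either day, replicate 1 or 2 of CD1dKOxE7 grafts at 28 dpg, or replicate 2 or 3 of those at 14 dpg (adjusted p = 0.0503 to 0.0824). The suprabasal list had 7 of 7 genes called in the same direction and the leukocyte list 3 of 6 in the other, and their part was not tested.

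**Figure D4:**
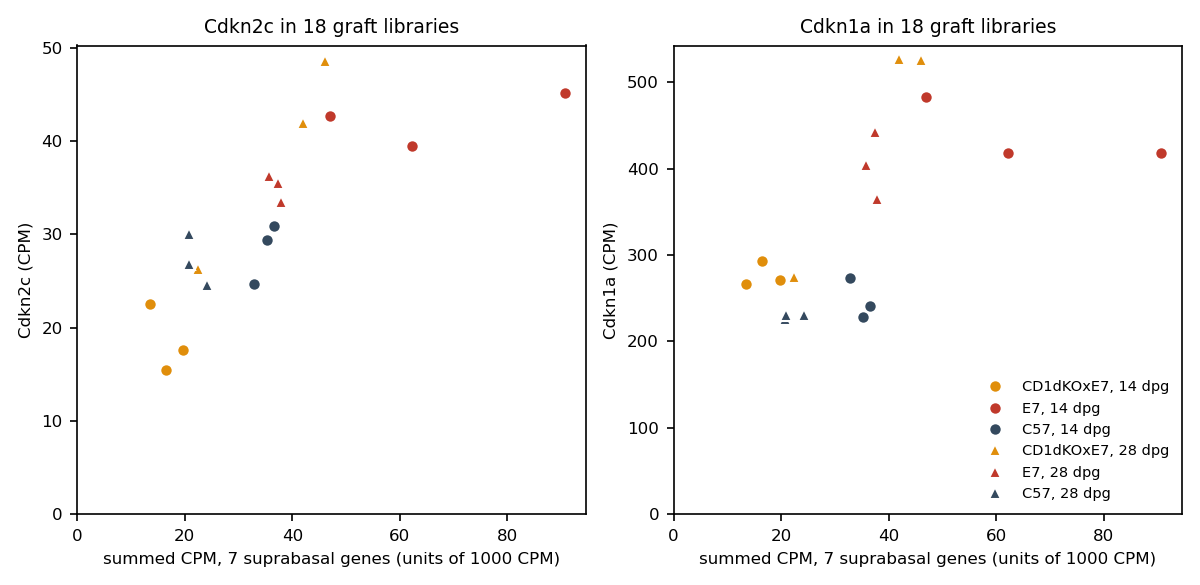
Cdkn2c (left) and Cdkn1a (right) in CPM against the summed CPM (axis in units of 1000 CPM) of 7 suprabasal keratinocyte genes in the 18 graft libraries, on linear axes from 0. Circles are 14 dpg and triangles 28 dpg. The CD1dKOxE7 grafts at 14 dpg and replicate 3 of those at 28 dpg lie at 13535 to 22406 CPM of the sum and at 26.3 CPM of Cdkn2c or below. C57 grafts at 28 dpg lie nearby, at 20711 to 24178 CPM of the sum and 24.5 to 30.0 CPM of Cdkn2c. C57 grafts at 14 dpg had a similar Cdkn2c range (24.7 to 30.8 CPM) at higher sums (32878 to 36501 CPM).

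Set against C57 grafts, the CD1dKOxE7 grafts had 1 of the 9 genes higher and 3 lower at 14 dpg, where 39.2% of genes were called (19.1% higher and 20.1% lower). Rbl1 rose by 0.78 ± 0.11 on the log2 scale (adjusted p = 3.99e-05), the only pocket protein gene called. Cdkn1c had 12.4, 21.0 and 10.7 CPM in CD1dKOxE7 grafts, against 28.6, 40.3 and 55.6 CPM in C57 grafts, and fell by 1.47 ± 0.39 (adjusted p = 0.00865). Cdkn2c and Cdkn2b fell by 0.61 ± 0.19 (adjusted p = 0.0179) and 0.41 ± 0.13 (adjusted p = 0.0216). Cdkn2c lost its call without replicate 1 or 3 of either group (adjusted p = 0.0503 to 0.082), and Cdkn2b without CD1dKOxE7 replicate 2 or 3 or C57 replicate 1 (adjusted p = 0.0566 to 0.114). Rb1 and Cdkn1a had log2 differences of 0.01 ± 0.08 and 0.17 ± 0.18, with intervals from -0.16 to 0.17 and from -0.19 to 0.52. At 28 dpg 5 of the 9 genes were higher and 2 lower, where 49.4% of genes were called (26.8% higher and 22.6% lower). Rbl1 rose by 1.61 ± 0.11 (adjusted p = 6.11e-08), Cdkn1a by 0.96 ± 0.18 (adjusted p = 0.000535) and Rb1 by 0.40 ± 0.08 (adjusted p = 0.00106). Without replicate 3 these were 1.72, 1.22 and 0.48, and Cdkn2c was 0.76 (adjusted p = 0.000357) in place of 0.53 ± 0.18 (adjusted p = 0.0242). The calls of Cdkn2a (0.93 ± 0.37, adjusted p = 0.045) and Cdkn1c (-1.02 ± 0.38, adjusted p = 0.0391) were lost without that library (adjusted p = 0.146 and 0.118). Cdkn2b fell by 0.33 ± 0.13 (adjusted p = 0.0476) with overlapping libraries. The calls of Cdkn2a, Cdkn2b, Cdkn2c and Cdkn1c were each lost under 6 to 8 alternatives (adjusted p = 0.0509 to 0.165), which included leaving out CD1dKOxE7 replicate 1 or C57 replicate 1 for all 4. Markers moved here too: at 14 dpg 5 of 7 suprabasal and 6 of 7 fibroblast genes fell and 3 of 6 leukocyte genes rose. The suprabasal sum was 13535 to 19743 CPM in CD1dKOxE7 and 32878 to 36501 CPM in C57 grafts. At 28 dpg 4 of 7 suprabasal genes rose and 2 fell, and 6 of 7 fibroblast, 6 of 6 skeletal muscle, 5 of 6 endothelium and 5 of 5 Schwann cell genes fell. Their part in these differences was not tested.

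Between the days, C57 grafts had 1 of the 9 genes called, where 22.6% of genes were (8.40% higher and 14.2% lower), and E7 grafts 1, where 17.2% were (7.68% higher and 9.48% lower). It was Rbl1 in each case, which fell at 28 against 14 dpg by 0.73 ± 0.11 in C57 grafts (adjusted p = 0.000413) and by 0.41 ± 0.10 in E7 grafts (adjusted p = 0.0159). The E7 call was lost without replicate 1 or 2 at 14 dpg or replicate 1 or 3 at 28 dpg (adjusted p = 0.0527 to 0.0729). In C57 grafts 15 of 16 S phase genes also fell, and in E7 grafts 5 did. Rb1 in E7 grafts (-0.23 ± 0.08 on the log2 scale, adjusted p = 0.065) was called with all 24 libraries fitted (adjusted p = 0.0314). CD1dKOxE7 grafts had 2 of the 9 genes called, where 22.6% of genes were (10.8% higher and 11.8% lower), both higher at 28 dpg. Cdkn2c rose by 1.08 ± 0.18 (adjusted p = 0.000996, and 1.30 with adjusted p = 7.06e-06 without replicate 3 at 28 dpg) and Cdkn1a by 0.69 ± 0.18 (adjusted p = 0.0123, and 0.95 with adjusted p = 3.43e-06 without it). Without that library Rb1 was called too (0.27 on the log2 scale, adjusted p = 0.0235). Without replicate 1 or 2 at 28 dpg, or with only these 2 groups fitted, Cdkn1a lost its call (adjusted p = 0.0692 to 0.132). Cdkn2a had log2 differences between the days of 0.99 ± 0.36, 0.74 ± 0.36 and 1.03 ± 0.43 in CD1dKOxE7, E7 and C57 grafts, and none was called with edgeR in the fit of 18 graft libraries (adjusted p = 0.0616, 0.167 and 0.098). In CD1dKOxE7 grafts Cdkn2a was called with DESeq2 (adjusted p = 0.0468) and with all 24 libraries fitted (adjusted p = 0.0426). In C57 grafts Cdkn2a was called without replicate 2 at 28 dpg (adjusted p = 0.0234). Cdkn1b in C57 grafts had a log2 difference of 0.26 ± 0.09 between the days (adjusted p = 0.053), and 7 alternatives called it (adjusted p = 0.0214 to 0.0418). Between the days 6 of 7 suprabasal genes rose in CD1dKOxE7 grafts, where 3 of 6 leukocyte and 4 of 6 endothelium genes fell, while 4 of 7 suprabasal genes fell in E7 and in C57 grafts. Of the 6 hair follicle genes 3 fell in each of the 3 donors' grafts. The part of these markers was not tested.

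Over the 8 groups, E7 ear had the highest mean level of 7 of the 9 genes, and C57 ear the highest of Rbl2 and Cdkn1c. For Rbl1 E7 ear had 109.7 ± 7.64 CPM, and the next groups were E7 grafts at 14 dpg (84.8 ± 6.48 CPM), CD1dKOxE7 grafts at 28 dpg (73.4 ± 9.79 CPM) and at 14 dpg (69.4 ± 6.09 CPM) and E7 grafts at 28 dpg (63.2 ± 4.32 CPM), each overlapping the next. C57 grafts at 14 dpg (40.4 ± 2.15 CPM), C57 ear (25.8 ± 1.22 CPM) and C57 grafts at 28 dpg (24.3 ± 2.31 CPM) followed, of which only the last 2 overlapped (SD, n = 3 each). On a scale per kilobase of exon, which allows genes to be compared, the pocket protein order differed between the ear groups. Rb1, Rbl1 and Rbl2 stood at 27.3, 22.6 and 14.9 CPM per kilobase in E7 ear, against 15.4, 5.30 and 16.9 CPM per kilobase in C57 ear. Rbl1 was thus the lowest of the 3 in C57 ear and lay between the other 2 in E7 ear. Cdkn1a was the most abundant of the 9 genes in both, at 204 CPM per kilobase in E7 ear and 81.5 CPM per kilobase in C57 ear, and Cdkn2a the least, at 6.65 and 0.0850 CPM per kilobase in E7 and C57 ear.

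Genes with the most similar pattern were sought among 15120 candidates for the 6 genes whose group means spanned at least 1 on the log2 scale, by the mean absolute difference of centred log2 profiles over the 8 groups. For Rbl1 they were Tacc3 (0.0543), Zwilch (0.0844) and Syce2 (0.0852), of which Tacc3 and Zwilch act in mitosis. For Rb1 they included Pkp4 (0.0379) and Marchf7 (0.0491). For Cdkn1a they were Tmem54, Msh6 and Pidd1 (0.0595 to 0.084), and for Cdkn2c Map2, Tob1 and Dmkn (0.0589 to 0.0774), where Dmkn is an epidermal gene. For Cdkn1c they were Pgm5, Smoc1 and Stmn2 (0.0735 to 0.0953). The nearest to Cdkn2a were further off, with Mgat5b at 0.389, Cxcr2 at 0.477 and Gdf15 at 0.512. Rbl2, Cdkn2b and Cdkn1b spanned 0.57, 0.89 and 0.31 and were not matched.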

How the data were processed

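The authors deposited 1 table per library of whole-number read counts per gene, 24 in all, and none of the columns of per-sample values was left out. Per the submitters' processing notes, the ear reads passed bcl2fastq 1.8.4 and Trimmomatic, the graft reads FastQC and Trimmomatic, and the build was mm10. Per the labels' protocols, RNA came from whole snap-frozen tissue and libraries from the TruSeq RNA kit v2. The aligner, counter and strand setting are not given in the sources used here. Rows were named by Entrez identifier through RefSeq, since the symbols of 603 rows differed between tables, and 25275 of 27180 rows matched. Rows without a symbol stayed in the library sizes.

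Genes with at least 10 counts by edgeR's filterByExpr were scaled by TMM and tested with edgeR 4.0.16 (R 4.3.3, quasi-likelihood F test, robust), in fits of 6 ear, 18 graft and all 24 libraries with 15720, 16189 and 16612 genes. A call is an adjusted p under 0.05 (Benjamini-Hochberg over all genes of a fit). SE is the absolute log2 difference divided by the root of F. CPM are counts over the TMM-scaled library sizes of the 24-library fit, and 3 counts correspond to 0.203 to 0.476 CPM. Levels per kilobase used the union of exons in GENCODE M21. DESeq2 1.42.0, other scalings and filters, a replicate block, other sets of libraries and leaving out each library were tried. The steps were tested on simulated data.

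All 9 genes are named in each comparison or counted. From each list of related genes, those with the smallest p in a comparison, at most 3, could be named, plus Cdkn2d and Cdkn3. The genes, lists and tests were chosen with earlier results of these data known, and patterns they repeat are not independent evidence. The labels do not state a pairing of grafts by replicate number. Correlations of deviations between same-numbered libraries were weak, as for CD1dKOxE7 against C57 at 14 dpg (0.107, 0.117 and 0.186). They were also positive for CD1dKOxE7 between the days (0.064, 0.063 and 0.025). These correlations were not tested and do not show a pairing. The other cell type lists were hair follicle, adipocyte, skeletal muscle, cartilage, endothelium, Schwann cell and mast cell. One gene with a pattern similar to Rb1 is not reported here.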

Additional observations from a re-analysis of the deposited data

Results flagged for a closer look

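In 12 cases the test of a difference between differences passed the adjusted p of 0.05 (edgeR quasi-likelihood test). Between 28 and 14 dpg, the log2 difference of CD1dKOxE7 against E7 grafts changed by 1.34 for Cdkn2c, 0.80 for Cdkn1a, 0.51 for Rbl1 and 0.42 for Rb1. Between grafts at 14 dpg and ear, the E7 against C57 difference changed by -4.79 for Cdkn2a, -1.02 for Rbl1, -0.97 for Cdkn2b and -0.39 for Rb1. Between grafts at 28 dpg and ear, it changed by -5.09 for Cdkn2a, -0.70 for Rbl1, -0.72 for Cdkn2b and -0.42 for Rb1. The sizes for Cdkn2a rest on 4 counts in C57 ear. Grafting and flow cell cannot be told apart in the ear comparisons.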

How the results depend on the processing

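Of 2339 alternative values of the 9 genes over 18 comparisons, 127 lost a call, 28 gained one, and 0 reversed with a call. A further 2178 kept the side of the threshold with no change of sign beyond 1 SE. Sign changes in values uncalled in both the main fit and the alternative numbered 82, and 6 of these moved by more than 1 SE. Upper quartile scaling moved the median of all genes by -0.12 in ear and by 0.11 in the 14 dpg graft minus ear effect. For CD1dKOxE7 against E7 at 28 dpg, 34 genes were called, against 125 with all 24 libraries fitted, 3 with the compared groups only and 234 with DESeq2 (1 of the 9 genes, against 0), and 4 to 304 without 1 library. For the E7 effect between days, 27 became 62 with all libraries and 145 with DESeq2, and 12 to 72 without 1 library. With only the compared groups fitted, CD1dKOxE7 between days had 1308 genes (3660 in the full fit) and 1 of the 9 (2), the 28 dpg graft minus ear effect 2190 (1234), and CD1dKOxE7 against C57 at 28 dpg 4 of the 9 (7), as it did with no filter. In C57 grafts between days, 2 of the 9 genes in place of 1 were called with RLE or upper quartile scaling, no filter, all libraries, the compared groups only or DESeq2, and in E7 grafts 2 in place of 1 with all libraries. The cause of these shifts was not tested. Without 1 library, gene counts were 3043 to 4488 for E7 against C57 at 14 dpg (4889), 1211 to 2753 for E7 between days (2778), 2022 to 5142 for CD1dKOxE7 between days, 1099 to 3956 for the change of the CD1dKOxE7 difference (2080), 1394 to 1882 for the 14 dpg graft minus ear effect (2098) and 743 to 1097 for the 28 dpg one. The called members then numbered 3 to 5 (5) for E7 against C57 at 14 dpg, 2 to 4 (4) and 3 to 5 (7) for CD1dKOxE7 against C57 at 14 and 28 dpg, 1 to 2 (1), 0 to 1 (1) and 1 to 3 (2) between days in C57, E7 and CD1dKOxE7 grafts, 1 to 4 (4) for the change of the CD1dKOxE7 difference, and 3 to 5 (5) for E7 grafts at 28 dpg against ear. A lone fold change of Cdkn2a in ear is limited by depth, since C57 ear held 4 of its counts.

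With the replicate number as a block, 65 genes in place of 34 were called for CD1dKOxE7 against E7 at 28 dpg, and 2 of the 9 genes in place of 1 in C57 grafts between days, where Cdkn1b was added. In CD1dKOxE7 against C57 grafts at 28 dpg the block ended the calls of Cdkn2b and Cdkn1c. Same-numbered libraries had correlations of -0.349 to 0.294, and 6 of 18 graft libraries correlated best with their own number. These values were not tested, and a pairing by number is not shown for any comparison. The block changed no other call of the 9 genes.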
